A study of Schizosaccharomyces pombe with 6 samples.

Results

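MBF (MCB-binding factor) is the transcription factor complex that switches on the genes of the G1-to-S transition in fission yeast, *Schizosaccharomyces pombe*. Its subunits and regulators were followed here as 7 genes, *cdc10*, *res1*, *res2*, *rep1*, *rep2*, *yox1* and *nrm1*, chosen by name. Each of the 7 had 1 probe set that the platform's annotation gives to that gene alone, among 2899 *S. pombe* genes measured with a name. The cells carried *rae1-167*, a temperature-sensitive allele of the gene for the mRNA export factor Rae1, in strain background 972. They were grown to early-log phase in rich medium (YE4S) and kept for 1 h at 36°C, the restrictive temperature, or at 25°C. Total RNA of 3 samples at 36°C and 3 at 25°C was hybridised, 1 array per sample, and the samples of a temperature are numbered as replicates 1 to 3. All 6 samples share the *rae1-167* allele and no wild type samples were analysed here, so the heat itself and the loss of Rae1 function cannot be told apart in these arrays.

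As background, MBF binds MCB elements in the promoters of genes for DNA replication and S phase. Cdc10 is its common ankyrin-repeat subunit, Res1 and Res2 are the related DNA-binding subunits, and Rep2 is a coactivator that works with Res2 in the mitotic cycle. Rep1 takes the coactivator role before premeiotic DNA synthesis. Nrm1 and the homeodomain protein Yox1 bind MBF and repress it outside G1 and S phase, and both genes are themselves MBF targets, which makes a negative feedback loop.

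The deposited value of a probe set is a signal intensity on a linear scale, scaled per array by the authors. The median signal of the *S. pombe* genes was between 1145 and 1577 on the 36°C arrays and between 1937 and 2613 on the 25°C arrays, and the median gene had a log2 fold change (36°C over 25°C) of -0.67. This common shift depends on the scaling. It was -0.73 after scaling to the bacterial and phage spike-in controls, -0.02 after quantile normalization and 0.10 after centring, in which the array's median log2 signal was subtracted. Background was set per array at the 90th percentile of probe sets made for *S. cerevisiae* genes (14.0 to 21.3), and all 7 genes lay above it on every array. The ratio of 5′ to 3′ signal, a sign of RNA quality, was lower on every 36°C array for 3 of 7 control genes, and its part in the results was not tested. The signal of *rae1* itself averaged 1554 ± 71.3 at 36°C and 4498 ± 210.2 at 25°C (SD, n = 3 each). Changes were tested with limma and adjusted over the 2899 genes (Benjamini-Hochberg), and a gene is said to rise or fall only at an adjusted p under 0.05.

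Of the 7 genes, 1 rose and 3 fell at 36°C, and these 4 genes encode the coactivators and the repressors. The meiotic coactivator gene *rep1* rose 10.9-fold, whereas the coactivator gene *rep2* fell 3.42-fold and the repressor genes *nrm1* and *yox1* fell 5.15-fold and 17.4-fold. The genes of the DNA-binding core, *cdc10*, *res1* and *res2*, did not pass the test in this fit, which has no block. Among all genes 12.1% rose and 52.1% fell (64.2% in either direction), so a fall in 3 of 7 is no larger a share than in the rest of the array. With the replicate number as a block, *res2* passed as higher and *cdc10* and *res1* as lower. In that fit 15.9% of all genes were higher and 59.3% lower. The temperatures did not overlap for 4 of the 7 genes, with 1 gene wholly higher and 3 wholly lower at 36°C, against 15.0% and 56.6% of all genes (71.6% together). RNA was measured in bulk, so a loss of cells that express a gene and less RNA per cell cannot be told apart. By the percentile of its log2 fold change among all genes, *rep1* stood at 99.2, *res2* at 93.4, *res1* at 59.8, *cdc10* at 58.0, *rep2* at 22.0, *nrm1* at 12.3 and *yox1* at 0.552.

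**Figure D1:**
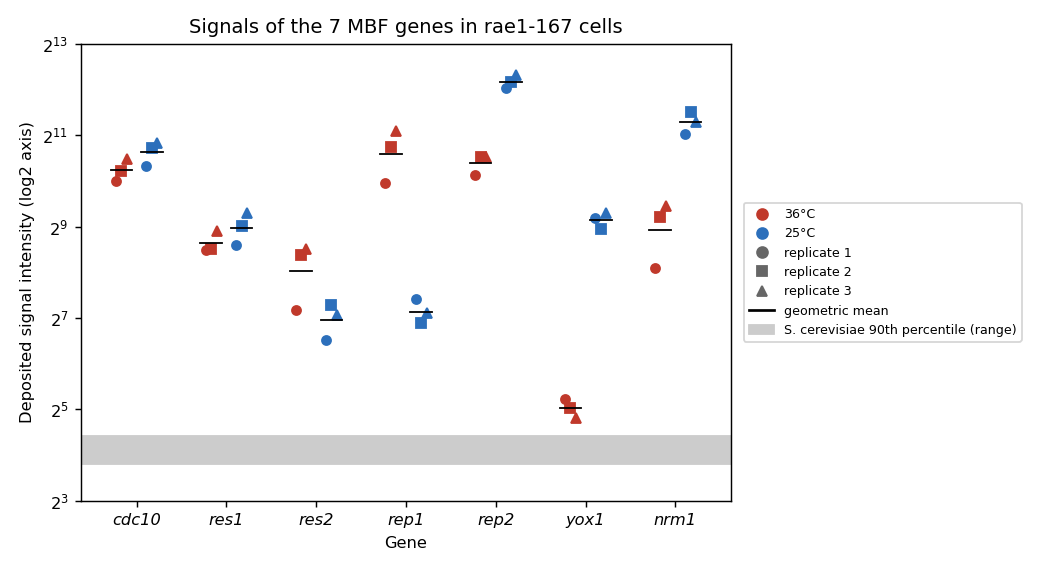
Deposited signal intensity (log2 axis) of the 7 MBF genes on each array, with 36°C in red to the left of 25°C in blue for every gene; symbols mark the replicate number, bars the geometric mean of 3 arrays, and the grey band the background over 6 arrays (14.0 to 21.3). The temperatures are fully separated for *rep1*, *rep2*, *yox1* and *nrm1* and overlap for *cdc10*, *res1* and *res2*.

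The gene for the common subunit, *cdc10* (SPBC336.12c), had signals of 1032, 1185 and 1424 at 36°C, against 1284, 1681 and 1823 at 25°C. The temperatures overlapped, although the 36°C signal was the lower one within each replicate number. The log2 fold change was -0.39 (SE 0.19, 95% interval -0.85 to 0.07, adjusted p = 0.12 from limma). With the replicate number as a block the same change passed the test (adjusted p = 0.014), as it did without replicate 1 at 25°C (log2 fold change -0.54, adjusted p = 0.043). After centring and after quantile normalization it turned positive, to 0.37 and 0.58.

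The gene of the DNA-binding subunit used mainly in the mitotic cycle, *res1* (SPBC725.16), had signals of 362, 365 and 480.5 at 36°C and of 389, 519.5 and 626 at 25°C. Again the temperatures overlapped, with the 36°C signal lower within each replicate number. The log2 fold change was -0.33 (SE 0.22, 95% interval -0.86 to 0.19, adjusted p = 0.23 from limma), and it was 0.43 after centring and 1.15 after quantile normalization. With the replicate block its adjusted p was 0.0498.

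The other DNA-binding subunit gene, *res2* (SPAC22F3.09c), whose product also works in meiosis, had signals of 145, 332 and 363 at 36°C, against 92.0, 157 and 134 at 25°C. Replicate 1 at 36°C lay below the highest array at 25°C, so the groups overlapped, while the other two 36°C arrays lay above all at 25°C. The log2 fold change was 1.06 (SE 0.40, 95% interval 0.09 to 2.03, adjusted p = 0.056 from limma), a 2.08-fold ratio. Without replicate 1 at 36°C it was 1.48 (adjusted p = 0.0025), and with the replicate block the adjusted p was 0.0036. Within replicate numbers 1, 2 and 3 the log2 difference was 0.66, 1.08 and 1.44.

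Both coactivator genes changed, in opposite directions. The signal of *rep1* (SPBC2D10.06) was 988, 1708 and 2185 at 36°C, against 171, 119.6 and 138 at 25°C. Each 36°C array was thus far above each 25°C array. The log2 fold change was 3.45 (SE 0.31, adjusted p = 1.6e-04 from limma), and within replicate numbers 1, 2 and 3 it was 2.53, 3.84 and 3.99. Replicate 1 had both the lowest 36°C signal and the highest 25°C signal. Every alternative kept the increase past the test, with log2 fold changes from 3.18 to 4.22.

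The signal of *rep2* (SPBC2F12.11c) was 1128, 1474 and 1473 at 36°C, against 4169, 4594 and 5122 at 25°C. The arrays of a temperature lay close together, and the temperatures did not overlap. The log2 fold change was -1.77 (SE 0.16, adjusted p = 1.4e-04 from limma), with values of -1.89, -1.64 and -1.80 within replicate numbers 1, 2 and 3. It remained past the test after quantile normalization (-1.16) and after centring (-1.01), where the fall was smaller.

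Both repressor genes fell. The signal of *nrm1* (SPBC16A3.07c) was 272, 591 and 704 at 36°C, against 2103, 2913 and 2518 at 25°C. Replicate 1 at 36°C was the lowest, and the temperatures did not overlap. The log2 fold change was -2.36 (SE 0.37, adjusted p = 0.0017 from limma). Centring gave -1.60 and quantile normalization -1.35, and it was between -2.63 and -1.95 with 1 array left out.

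The signal of *yox1* (SPBC21B10.13c) was 37.7, 32.7 and 27.9 at 36°C, against 582, 496 and 628 at 25°C. All 36°C signals were above the background of their arrays (14.0, 15.2 and 16.7), but only that of replicate 1 was above the 99th percentile of *S. cerevisiae* probe sets (31.2, 35.3 and 40.0). The remaining signal at 36°C therefore lay close to background. The log2 fold change was -4.12 (SE 0.16, adjusted p = 1.8e-05 from limma), and adding 32 to every signal, which damps changes of dim genes, brought it to -3.21. Probe sets of *S. cerevisiae* NRM1 and YOX1, which the samples should not hybridise to, had signals of 4.60 to 11.5 on the 36°C arrays and of 7.20 to 17.9 on the 25°C arrays.

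**Figure D2:**
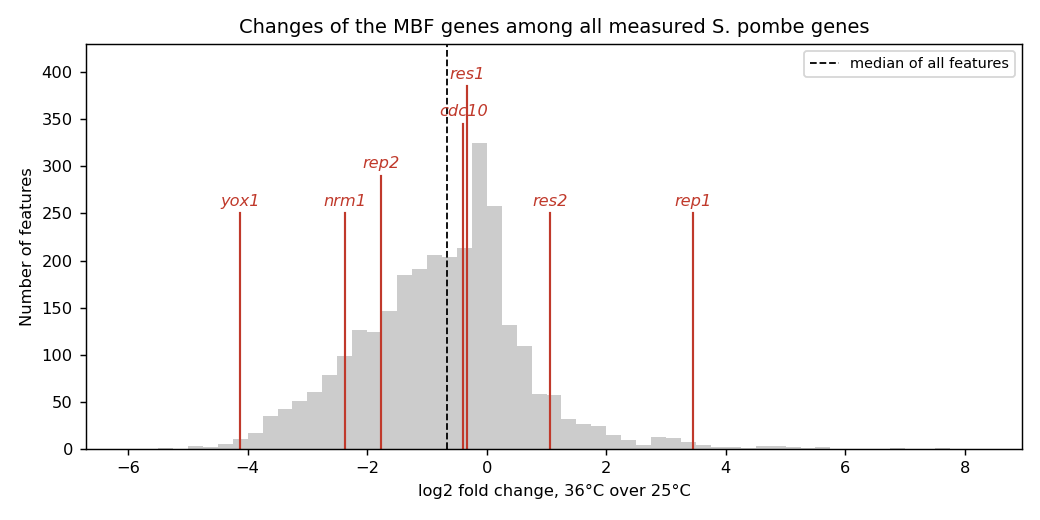
Histogram of the log2 fold change (36°C over 25°C) of all 2899 named *S. pombe* genes, in number of genes, with the MBF genes marked in red and the median (-0.67) dashed. The lines of *cdc10* and *res1* stand near the middle, *yox1* (-4.12) in the lower tail and *rep1* (3.45) in the upper tail.

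The scalings shift most genes one way, so the direction of a small change depends on them. Under both centring and quantile normalization 4 MBF genes passed as higher (*cdc10*, *res1*, *res2* and *rep1*) and 3 lower (*rep2*, *yox1* and *nrm1*), against 39.4% higher and 34.5% lower among all genes after centring and 30.4% higher and 33.9% lower after quantile normalization. With the replicate block 2 were higher and 5 lower, against 15.9% and 59.3% of all genes. The direction of the log2 fold change of *rep1*, *res2*, *rep2*, *nrm1* and *yox1* was the same under all 17 alternatives, while that of *cdc10* and *res1* turned under centring and quantile normalization.

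**Figure D3:**
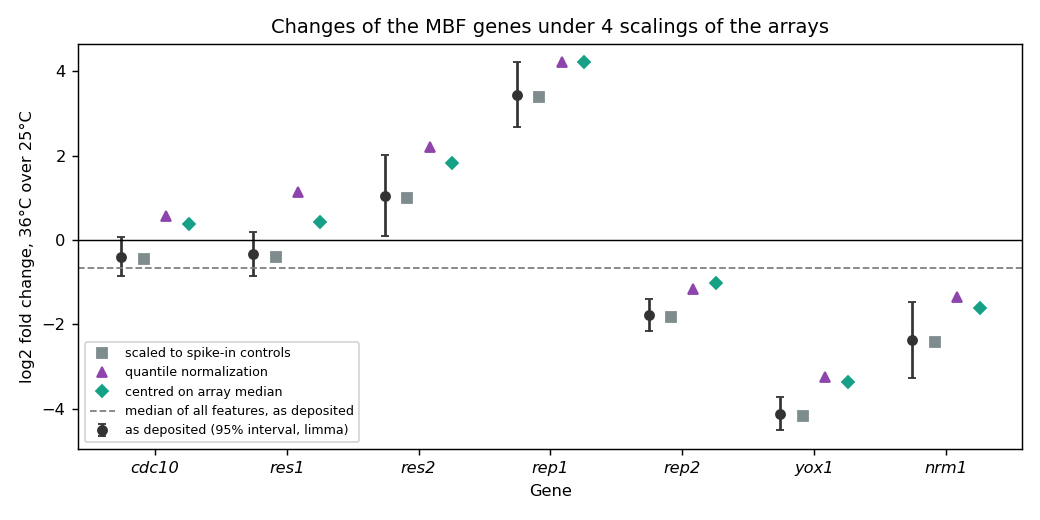
Log2 fold change (36°C over 25°C) of each MBF gene on the deposited scale, with the 95% interval from limma, and after scaling to spike-in controls, quantile normalization and centring on the array median, with the median of all genes on the deposited scale dashed. The points of *cdc10* and *res1* lie on both sides of 0, and those of the other genes on 1 side.

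Ratios between members within an array do not depend on how bright the array is as a whole, and their level depends on the probes, so only their difference between temperatures is given a test. Of 9 pairs compared, the temperatures were separated in 8, and in each of these the two-sided exact permutation test gave p = 0.1, the smallest p that 3 arrays against 3 allow (adjusted p = 0.11 over the 9 pairs). None could therefore pass at 0.05. The pairs share genes, and how many other pairs of genes separate was not counted. Among single genes the temperatures were separated for 71.6%, so the number of separated pairs is not read as particular to these genes. The log2 ratio of *rep1* to *rep2* was -0.19, 0.21 and 0.57 at 36°C, against -4.61, -5.26 and -5.22 at 25°C. The mean difference corresponds to a 37.4-fold larger ratio of these coactivator mRNAs at 36°C. The log2 ratio of *res2* to *res1* was -1.32, -0.14 and -0.41 at 36°C, against -2.08, -1.73 and -2.23 at 25°C, a change of 1.39.

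Relative to *cdc10*, the log2 ratio at 36°C minus that at 25°C was 3.84 for *rep1*, 1.45 for *res2*, -1.38 for *rep2*, -1.97 for *nrm1* and -3.73 for *yox1*. The ratio of *yox1* to *nrm1* averaged -3.89 ± 0.94 at 36°C and -2.14 ± 0.37 at 25°C on the log2 scale (SD, n = 3 each), a difference of -1.76. With 32 added to every signal it was -0.93 and the temperatures overlapped (exact permutation p = 0.2). On the deposited scale the temperatures overlapped for the ratio of *res1* to *cdc10*. It averaged -1.59 ± 0.10 at 36°C and -1.65 ± 0.10 at 25°C (SD, n = 3 each), a difference of 0.06 (exact permutation p = 0.60). After quantile normalization this difference was 0.57 and the temperatures were separated (exact permutation p = 0.1).

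**Figure D4:**
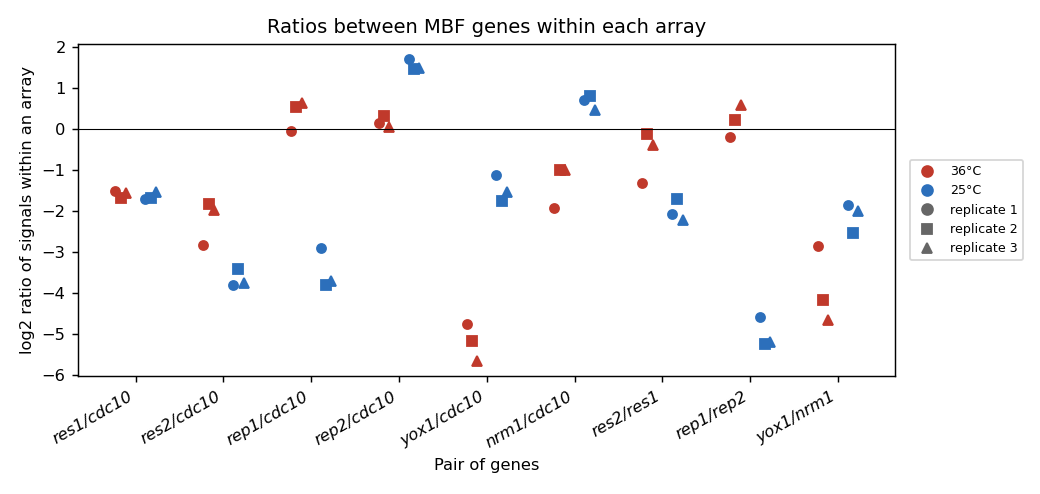
Log2 ratio of the deposited signals of 2 MBF genes on the same array, with 36°C in red to the left of 25°C in blue and symbols for the replicate number. The temperatures overlap only for *res1*/*cdc10*, and they lie farthest apart for *rep1*/*rep2*.

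The MBF genes also differed in how closely the arrays of a temperature agreed. At 36°C the SD of the log2 signal was 0.73 for *nrm1* and *res2* and 0.59 for *rep1*, against 0.22 to 0.23 for *cdc10*, *res1*, *rep2* and *yox1*. For every member but *yox1* the lowest 36°C signal was in replicate 1, whose array also had the lowest median signal. The order of the spreads changed on centred values, where the SD was 0.51 for *nrm1* and *res2*, 0.45 for *yox1* and 0.36 for *rep1*, against 0.14 for *res1*, 0.09 for *rep2* and 0.05 for *cdc10*. At 25°C the SD on the deposited scale was between 0.15 (*rep2*) and 0.40 (*res2*).

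G1/S transcripts, most of them known as MBF targets, mostly fell. Of 21 listed genes 18 had a named probe set. Of these, 12 fell and 0 rose by limma (13 and 1 at an unadjusted p under 0.05), leaving 6 not called. Among all genes 52.1% fell and 12.1% rose. The median log2 fold change of the list was -1.70, beside -0.67 for all genes. Centring gave 3 higher and 11 lower with a median of -0.93, against 39.4% and 34.5% of all genes with a median of 0.10. Quantile normalization gave 4 higher and 10 lower, against 30.4% and 33.9% of all genes. With the replicate block 16 were lower and 1 higher, against 59.3% and 15.9% of all genes. The largest decreases were those of *psm3* (a cohesin subunit, log2 fold change -3.82), *eso1* (the cohesin acetyltransferase, -3.67), *mrc1* (the replication checkpoint mediator, -3.63), *pol1* (the catalytic subunit of DNA polymerase alpha, -3.36) and *ctp1* (DNA end resection, -3.02). Signals of *mrc1* were 48.9, 94.7 and 92.7 at 36°C, against 760.4, 954 and 1119 at 25°C. The temperatures lay far apart, as they did for *ctp1*, which had signals of 142, 159 and 145 at 36°C and 993, 1234 and 1417 at 25°C.

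Some familiar MBF targets and the remaining genes that fell were named after their values were seen. Those remaining were *msh6* (log2 fold change -2.08), *mcl1* (-2.07), *ssb1* (-1.90) and *mik1* (-1.39). The signal of *cig2*, the S-phase cyclin gene, was 522, 884 and 982 at 36°C, against 3964, 5203 and 5480.0 at 25°C, and the log2 fold change was -2.65 (SE 0.27). For *cdc22*, the large subunit of ribonucleotide reductase, the signal averaged 3347 ± 904 at 36°C and 9304 ± 1097 at 25°C (SD, n = 3 each), and the fall was 2.83-fold. For *cdc18*, the replication licensing factor, the log2 fold change was -0.89 (SE 0.15, adjusted p = 0.0023 from limma), and its signals were 1279, 1186 and 1360.0 at 36°C, against 1992, 2458 and 2705 at 25°C. It did not pass after centring (-0.13, adjusted p = 0.46) or quantile normalization (-0.12, adjusted p = 0.37). The genes that did not pass were *cdt1* (-0.32), *cdt2* (-0.43), *ams2* (-0.61), *cdc20* (DNA polymerase epsilon, -0.74), *suc22* (the small subunit of ribonucleotide reductase) and *rad21* (the mitotic cohesin kleisin, 1.02). The signal of *suc22* averaged 11573 ± 442 at 36°C and 11594 ± 167 at 25°C (SD, n = 3 each). The signals of *rad21* were 1340, 3043 and 3443 at 36°C, against 917, 1368 and 1333 at 25°C. With the replicate block *rad21* was higher (adjusted p = 0.0052 from limma), as it was without replicate 1 at 36°C (log2 fold change 1.45, adjusted p = 0.0015).

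**Figure D5:**
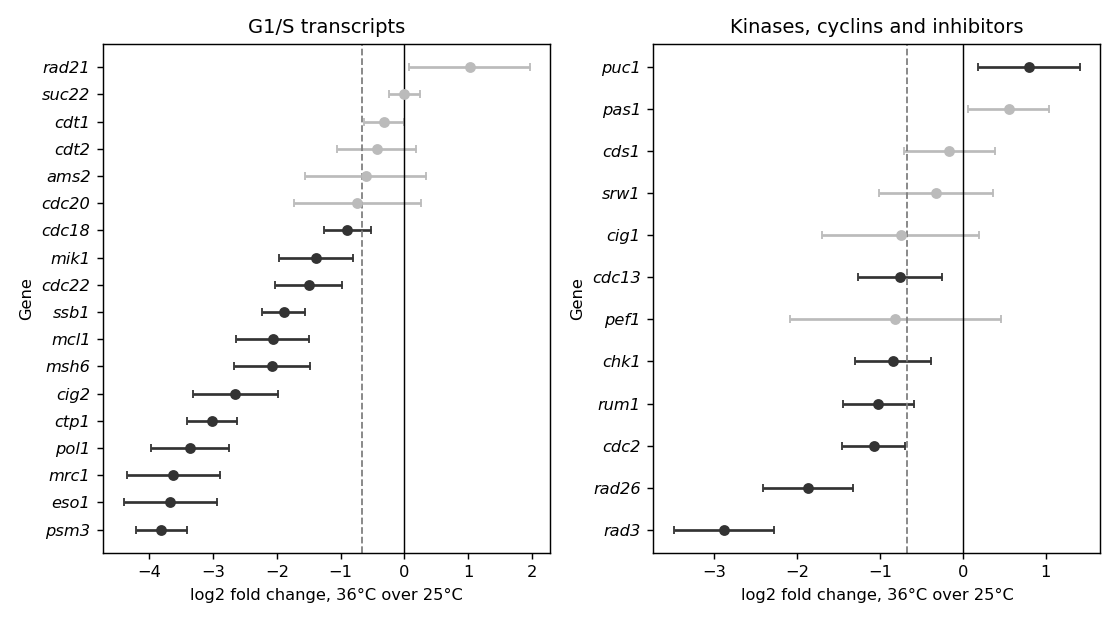
Log2 fold change (36°C over 25°C) with the 95% interval from limma for the G1/S transcripts (left) and the kinases, cyclins and inhibitors that act on MBF or its regulators (right), with points that passed the test at an adjusted p under 0.05 dark, the others pale, and the median of all genes (-0.67) dashed. Most G1/S transcripts lie to the left of that line, and *puc1* is the only dark point above 0.

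Genes that act on MBF or on its regulators lay nearer the median of all genes. Of 12 kinases, cyclins and inhibitors 6 fell and 1 rose, shares near the 52.1% and 12.1% of all genes, 5 were not called, and the list had a median log2 fold change of -0.78. The largest decreases were those of *rad3* (the checkpoint kinase related to ATR, -2.88), its partner *rad26* (-1.87), *cdc2* (the cyclin-dependent kinase, -1.08), the inhibitor gene *rum1* (-1.02) and *chk1* (-0.84). Of these, *cdc2*, *rum1* and *chk1* lay near the median of all genes, and after centring 2 genes of the list were lower and 3 higher, against 34.5% and 39.4% of all genes. The signal of *puc1*, a G1 cyclin gene, was 1562, 2511 and 2807 at 36°C, against 1068, 1381 and 1415 at 25°C. The temperatures did not overlap, and the increase was 0.80 on the log2 scale (SE 0.25, adjusted p = 0.031 from limma). Its adjusted p was between 0.062 and 0.101 when any 1 array other than replicate 1 at 36°C was left out. The kinase gene *cds1*, whose product acts on Yox1 and Nrm1 under replication stress, had a log2 fold change of -0.16 (95% interval -0.71 to 0.38). Its log2 difference was 0.52, -0.53 and -0.48 within replicate numbers 1, 2 and 3, and replicates 2 and 3 alone gave -0.50 (adjusted p = 0.0031 from limma), whereas quantile normalization gave 0.70 (adjusted p = 0.044 from limma). For *pas1*, a cyclin gene linked to Res2 and Cdc10, the log2 fold change was 0.55 (adjusted p = 0.05003 from limma). Both were named after their values were seen. With the replicate block *pas1* passed as higher (adjusted p = 0.022).

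Of 5 measured genes for other transcription factors of the cell cycle and of differentiation, 4 rose and 1 fell, beside 12.1% and 52.1% of all genes. Of those that rose, *ste11* and *mei4* are also among the meiotic entry markers counted below. The forkhead gene *sep1* rose 2.63-fold and *mei4*, the meiotic forkhead gene, 8.25-fold, whereas *fkh2*, also a forkhead gene, fell 3.47-fold. Transcripts that mark mitosis or meiosis were counted as well. Of 18 mitosis and septation transcripts 10 fell and 2 rose (log2 fold changes of *cdc25* at 1.03 and *ark1* at 0.83, with *bir1* at -3.74 and *adg2* at -2.47), a share of falls near that of all genes (52.1%). Centring gave 7 lower and 6 higher (all genes: 34.5% and 39.4%). Quantile normalization gave 6 lower and 5 higher (all genes: 33.9% and 30.4%). The summed signal of the mitosis and septation transcripts was 27541 to 41096 at 36°C and 46754 to 62324 at 25°C. Of 15 meiotic entry markers 10 rose and 2 fell (*mei2* at -0.70 and *rec10* at -0.54), beside 12.1% and 52.1% of all genes. Centring and quantile normalization each gave 11 higher and 0 lower. The shares of all genes to set beside these are 39.4% and 34.5% for centring, 30.4% and 33.9% for quantile normalization. The summed signal of the meiotic markers was 8544 to 13423 at 36°C and 1626 to 2002 at 25°C. The gene *mei3*, an inducer of meiosis, had the largest fitted log2 fold change (7.72), against a 25°C signal above background on 2 of 3 arrays. Among the listed markers the next was that of *rec8*, a meiotic cohesin gene (5.03), whose 25°C signal was above background on 1 of 3 arrays. The part of these shifts in the results for the MBF genes was not tested.

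The genes whose pattern over the 6 arrays was most like that of a member were found by the root mean square distance between log2 signals, each gene taken relative to its own mean. They share arrays with the members, and the temperature difference dominates the measure. Nearest to *rep1* were *fmt1* (distance 0.25, log2 fold change 3.01) and *mug9* (0.28, log2 fold change 3.25), the widest nearest distance of the 7 members. Nearest to *res2* was *rad21* (0.07), one of the G1/S transcripts, and then *mug73* (0.12). *Nrm1* was followed most closely by *isp4* (0.03), an oligopeptide transporter gene, and *ilv1* (0.09), and *yox1* by *mas2* (0.19) and *mug71* (0.20). For *rep2* they were *atp10* (0.04) and *prw1* (0.07), for *cdc10* *hrd1* (0.05) and *fft3* (0.05), and for *res1* *mug168* (0.06) and *spo3* (0.07).

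In the RefSeq annotation of *S. pombe*, *cdc10*, *res1*, *rep1*, *rep2* and *nrm1* overlap a protein-coding neighbour, and where in the gene the probes lie is not given in the sources used here. Of these neighbours, *vps52* beside *cdc10* (log2 fold change -0.91) and *rrn11* beside *res1* (-2.86) were measured under their names, and both fell while their partners did not pass the test. *Rec6*, named after its values were seen, adjoins *yox1* without overlap and had signals averaging 618 at 36°C and 584 at 25°C (log2 fold change 0.03, adjusted p = 0.93), beside the fall of *yox1*.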

How the data were processed

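Biotinylated cRNA from 500 ng of total RNA per sample was hybridised to Affymetrix Yeast Genome 2.0 GeneChips. The deposited signal intensities, 1 per probe set and array, were made by the authors with GCOS v1.4 (default settings, global scaling, target not given in the sources used here). Probe sets were named from the platform's annotation (5518 carried 1 symbol, 20 several, the others none). Signals under 1 were set to 1 before log2, and probe sets of 1 gene were averaged. The fit used limma 3.58.1 (under R 4.3.3, lmFit then eBayes, without a block) and was tested on simulated data. Pair ratios used exact permutation tests (scipy 1.17.1), and neighbouring genes came from RefSeq (ASM294v3).

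The members and gene lists were chosen with earlier results of these data known. Genes named by rule were all members, *rae1*, the 5 largest increases and decreases past the test among the G1/S and the kinase and cyclin lists, the 2 largest each way in the other lists, and the 2 genes nearest each member. The labels do not say that replicates were separate cultures, so p-values measure the spread between these samples. Deviations of same-numbered arrays correlated at 0.47, 0.38 and 0.29, but replicate 3 at 36°C correlated at 0.45 with replicate 2 at 25°C. How the arrays pair was thus not settled. The main fit has no block, and the replicate number served as a block in an alternative. A block that set replicate 1 apart from the other replicates was also tried, in case it formed a series of its own. The number of arrays limits the precision.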

Additional observations from a re-analysis of the deposited data

How the results depend on the processing

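The increase of *rep1* and the decreases of *rep2*, *yox1* and *nrm1* kept their direction and passed limma's test under all 17 alternatives. The calls of *cdc10*, *res1* and *res2* depended on the setting, and the cause was not tested. Quantile normalization gave 0.58 for *cdc10*, 1.15 for *res1* and 2.21 for *res2*, and centring gave 0.37, 0.43 and 1.82. With the replicate block, which leaves the values at -0.39, -0.33 and 1.06, all passed the test, as they did with replicates 2 and 3 alone (-0.43, -0.45 and 1.26). With replicate 1 set apart as a block *cdc10* (-0.39) and *res2* (1.06) passed. *Res2* also passed after scaling to spike-in controls (1.00) and with trend and robust variances (1.06). With 1 array left out *cdc10* ranged from -0.54 to -0.28 and passed the test only without replicate 1 at 25°C (-0.54). *Res1* ranged from -0.52 (without replicate 1 at 25°C) to -0.17 (without replicate 3 at 25°C) and never passed. *Res2* ranged from 0.82 to 1.48 and passed only without replicate 1 at 36°C (1.48).

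Members higher, 1 as reported, numbered 4 after quantile normalization and after centring, 2 after spike-in scaling, with trend and robust variances, with either block and with replicates 2 and 3 alone, and 1 to 2 with 1 array left out. Members lower, 3 as reported, numbered 5 with the replicate block and with replicates 2 and 3 alone. They numbered 4 with replicate 1 set apart as a block and without replicate 1 at 25°C. G1/S transcripts higher, 0 as reported, numbered 4 after quantile normalization, 3 after centring, 1 with trend and robust variances, either block or replicates 2 and 3 alone, and 0 to 1 with 1 array left out. Kinases and cyclins higher, 1 as reported, numbered 5 after quantile normalization, 3 after centring, 0 with all probe sets tested, and 2 with 32 added, dim genes left out, trend and robust variances, either block or replicates 2 and 3 alone. With 1 array left out they numbered 0 to 2. Those lower numbered 2 after centring. Among all genes 351 were higher and 1510 lower as reported, 880 and 984 after quantile normalization, 1143 and 1001 after centring, and 572 and 2301 with all probe sets tested. More genes passed in both directions with either block, replicates 2 and 3 alone, trend and robust variances, or without replicate 1 at 36°C. After spike-in scaling and without replicate 1 at 25°C fewer genes were higher and more were lower. The counts of the lists are therefore not read apart from these array-wide changes.

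The ratio of *res1* to *cdc10* turned from 0.06 to -0.016 with replicates 2 and 3 alone and was 0.57 after quantile normalization, and the other pair ratios kept their direction in all 10 alternatives run on them. Signals near background limit the fold of *yox1*.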
